A study of Rattus norvegicus with 35 samples.

Results

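The genes described here make cholesterol and fatty acids in the liver, and their RNA was followed in male Sprague Dawley rats (Harlan Sprague Dawley in the treatment protocol) given TBB, the brominated flame retardant 2-ethylhexyl tetrabromobenzoate. The set named 38 genes, of which 21 belong to sterol synthesis and its control (the sterol branch) and 17 to fatty acid and triglyceride synthesis (the lipogenic branch). A gene counted as measured where a probe set of the array carried its symbol alone, and the probe set with the highest mean over the 35 arrays stood for the gene. By that rule 37 of the 38 genes were measured, 20 in the sterol branch and 17 in the lipogenic branch, out of 14217 genes on the array. Hmgcs1, the synthase that makes HMG-CoA, had no single-symbol probe set and was not analysed here. Daily TBB doses were 0.05 mg/kg, 0.55 mg/kg, 5.50 mg/kg, 55 mg/kg and 550 mg/kg, with 6 arrays for each, and 5 arrays came from rats given vehicle. All rats were 7 weeks old at the start and ate the NTP-2000 diet. They received corn oil by gavage at 5 ml/kg on 5 consecutive days, with or without TBB, and RNA came from the left liver lobe 1 day after the last dose. The labels number the arrays of a group without saying that each was a separate rat, so the spread behind every p-value is that between these samples and could be technical.

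Cholesterol is built from acetyl-CoA through mevalonate, isoprenoid diphosphates, squalene and lanosterol, and the genes of these steps are known targets of the transcription factor SREBP2, encoded by Srebf2. When sterols are plentiful, INSIG proteins hold SREBP precursors in the endoplasmic reticulum, and Insig1 is itself a target of the factors it restrains. Fatty acids are built from citrate by ATP citrate lyase, acetyl-CoA carboxylase and fatty acid synthase, under SREBP1c (from Srebf1) and the carbohydrate-responsive factor ChREBP (from Mlxipl), which answer to feeding, insulin and glucose in liver.

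The labelled tissue was checked against 9 measured hepatocyte markers, which were bright on every array, with a mean log2 expression of 12.99 to 13.09 at 550 mg/kg and of 13.11 to 13.29 in vehicle. Of these 9, 7 had a negative change at 550 mg/kg and Apoa1, an apolipoprotein gene, fell by 0.51 (limma, Benjamini-Hochberg adjusted p = 7.3e-06). Pairs of arrays correlated at 0.988 to 0.996 over all probe sets, and no 2 arrays were identical. Over the whole array of 31042 probe sets, 155 passed an adjusted p of 0.05 at 550 mg/kg against vehicle, 2 at 55 mg/kg, and 0 at each of the 3 lower doses.

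Promoter windows of 300 bases, 250 before and 50 after the annotated start, were read from RefSeq (build GRCr8) for 29 of the 37 measured genes, Srebf1 and Mlxipl with 2 windows each, and not for Sqle, Fdft1, Pmvk, Stard4, Fasn, Acaca, Elovl6 and Dgat2. Those of 4 sterol and 2 lipogenic genes are printed as examples of the motif that most windows of the set hold. Capitals mark CCAAT or its reverse complement ATTGG, the letters of the CCAAT box, to which the factor NF-Y is known to bind beside SREBP in such promoters.
Idi1 (chr17:66547475-66547774, minus strand): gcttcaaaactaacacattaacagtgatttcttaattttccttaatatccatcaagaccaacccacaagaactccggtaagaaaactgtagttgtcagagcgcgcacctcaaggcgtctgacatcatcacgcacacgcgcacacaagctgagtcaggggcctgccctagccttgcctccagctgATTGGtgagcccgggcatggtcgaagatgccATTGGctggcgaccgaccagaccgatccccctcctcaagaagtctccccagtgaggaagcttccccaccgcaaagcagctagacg
Hsd17b7 (chr13:84722705-84723004, minus strand): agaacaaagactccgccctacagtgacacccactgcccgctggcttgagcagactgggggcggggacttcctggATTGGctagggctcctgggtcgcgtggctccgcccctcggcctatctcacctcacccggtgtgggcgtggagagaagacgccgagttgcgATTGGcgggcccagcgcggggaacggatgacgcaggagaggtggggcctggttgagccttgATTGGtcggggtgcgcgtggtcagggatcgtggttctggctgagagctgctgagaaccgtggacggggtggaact
Mvk (chr12:47819454-47819753, minus strand): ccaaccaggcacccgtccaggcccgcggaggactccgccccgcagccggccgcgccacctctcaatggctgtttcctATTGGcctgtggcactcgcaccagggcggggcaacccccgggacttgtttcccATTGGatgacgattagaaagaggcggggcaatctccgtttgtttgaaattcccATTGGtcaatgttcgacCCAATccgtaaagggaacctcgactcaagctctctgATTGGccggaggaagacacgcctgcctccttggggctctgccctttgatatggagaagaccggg
Nsdhl (chrX:155817110-155817409, plus strand): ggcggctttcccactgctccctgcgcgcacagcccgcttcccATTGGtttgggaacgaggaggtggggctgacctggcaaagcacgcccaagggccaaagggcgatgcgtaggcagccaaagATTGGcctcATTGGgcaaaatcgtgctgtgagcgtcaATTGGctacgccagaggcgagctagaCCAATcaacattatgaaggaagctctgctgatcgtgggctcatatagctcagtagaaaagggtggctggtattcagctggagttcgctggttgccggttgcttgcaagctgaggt
Acly (chr10:85963582-85963881, minus strand): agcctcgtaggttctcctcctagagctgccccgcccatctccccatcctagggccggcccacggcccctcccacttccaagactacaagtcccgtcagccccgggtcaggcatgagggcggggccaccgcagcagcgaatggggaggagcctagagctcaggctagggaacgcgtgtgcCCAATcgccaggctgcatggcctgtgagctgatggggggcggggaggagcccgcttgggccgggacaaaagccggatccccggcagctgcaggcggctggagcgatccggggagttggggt
Acss2 (chr3:164464453-164464752, plus strand): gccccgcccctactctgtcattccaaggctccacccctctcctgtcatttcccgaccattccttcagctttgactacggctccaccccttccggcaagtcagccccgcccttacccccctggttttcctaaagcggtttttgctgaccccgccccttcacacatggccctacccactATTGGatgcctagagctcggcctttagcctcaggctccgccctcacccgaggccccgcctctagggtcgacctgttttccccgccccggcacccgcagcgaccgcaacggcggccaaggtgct

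In Idi1 the matches began 66 and 35 bases upstream of the start, and in Hsd17b7 they began 176, 86 and 25 bases upstream. Mvk and Nsdhl held 5 matches each, and Acly and Acss2 held 1 each, at 71 and 73 bases upstream. CCAAT on either strand was found in 13 of 16 sterol genes with a window (81.3%) and in 11 of 13 lipogenic genes (84.6%), against 39.6% of all 27457 genes with a window. The genes with a window and no match were Acat2, Cyp51 and Dhcr7 of the sterol branch and Scd and Fads2 of the lipogenic branch. Of the 49 matches in the 31 windows of the set, 47 lay upstream of the start, 23 between 40 and 120 bases upstream, and 39 ran as ATTGG. The Mlxipl windows overlap almost wholly, so the same ATTGG matches of this gene were counted in both. The E-box CACGTG, a palindrome, was in 2 of 16 sterol genes (12.5%), 1 of 13 lipogenic genes (7.69%) and 7.08% of all genes, and no CCAAT match overlapped one. The sterol response element core, written TCACNCCAC with its reverse GTGGNGTGA, was in 0 of 16 and 0 of 13 windows, against 1.25% of all genes. These are matches of letters in these windows and say nothing of binding.

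Set side by side over the doses, the sterol branch had its lowest means at the 2 highest doses, whereas the lipogenic branch was lowest at 55 mg/kg and averaged 9.37 at 550 mg/kg, against 9.36 in vehicle. The mean log2 expression of the 20 sterol genes in an array averaged 10.39 ± 0.20 in vehicle (SD, n = 5), 10.36 at 0.05, 10.30 at 0.55, 10.36 at 5.50, 10.13 ± 0.28 at 55 and 10.11 ± 0.22 at 550 mg/kg (SD, n = 6). The mean of the 17 lipogenic genes averaged 9.36 ± 0.16 in vehicle (SD, n = 5), 9.44 at 0.05, 9.42 at 0.55, 9.28 at 5.50, 9.15 ± 0.27 at 55 and 9.37 ± 0.24 at 550 mg/kg (SD, n = 6). The groups overlapped in both branches, and arrays of one group covered a range of 0.41 to 0.82 in the sterol mean and of 0.46 to 1.01 in the lipogenic mean, both wider than the largest difference of a group mean from vehicle, -0.28 in the sterol branch at 550 mg/kg and -0.21 in the lipogenic branch at 55 mg/kg.

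**Figure D1:**
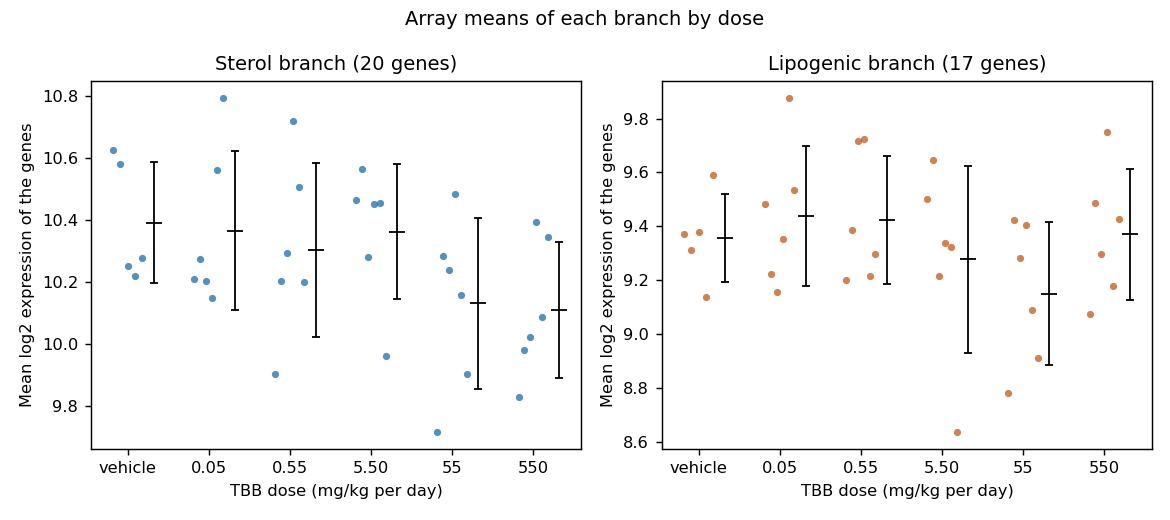
Mean log2 expression of the 20 sterol genes (left) and the 17 lipogenic genes (right) in each of the 35 arrays, by TBB dose in mg/kg per day, with the group mean and SD as bars. Sterol means averaged 10.11 at 550 mg/kg and 10.39 in vehicle, lipogenic means 9.37 at 550 mg/kg and 9.36 in vehicle, and the points of these groups overlap.

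The sterol mean ran from 9.83 to 10.40 with a median of 10.05 at 550 mg/kg, against 10.63, 10.58, 10.25, 10.22 and 10.28 in the vehicle arrays. At 550 mg/kg 4 of 6 arrays lay below the lowest vehicle array, and 2 vehicle arrays (10.63 and 10.58) stood above the other 3. Lower doses had such arrays too, 3 of 6 at 0.05, 3 of 6 at 0.55, 1 of 6 at 5.50 and 3 of 6 at 55 mg/kg. The difference between an array's sterol mean and its lipogenic mean takes out only deviations that both branches share in size and direction. This difference was not narrower in vehicle, with an SD of 0.25 against 0.20 for the sterol mean and 0.16 for the lipogenic mean. It averaged 1.03 ± 0.25 in vehicle (SD, n = 5, range 0.69 to 1.27), 0.93 ± 0.23 at 0.05, 0.88 ± 0.25 at 0.55, 1.09 ± 0.14 at 5.50, 0.98 ± 0.08 at 55 and 0.74 ± 0.16 at 550 mg/kg (SD, n = 6, range 0.49 to 0.92 at 550 mg/kg). At 0.55 mg/kg 5 of 6 arrays lay below the vehicle mean of this difference and 1 below the lowest vehicle array. All 6 arrays at 550 mg/kg lay below the vehicle mean of this difference, 2 of them below the lowest vehicle array. No test is attached to these means, since the genes were chosen with earlier results of these data known.

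At 550 mg/kg every measured sterol gene, read by its chosen probe set, had a lower mean than in vehicle, and none passed the test. Among probe sets not chosen, those of Mvk with mean 4.49 (0.004) and Srebf2 with mean 3.78 (0.03) were not lower. One of Sc5d differed by -0.04, and the rest were lower too. The changes of the 20 genes ranged from -0.61 to -0.11 on the log2 scale with a median of -0.24, against a median of -0.01 over all 14217 genes. None of the 20 passed an adjusted p of 0.05 in limma's moderated test, where 0.499% of all probe sets and 118 of 14217 genes did. In the lower direction 4 of 20 had an unadjusted p under 0.05, where 4.22% of probe sets and 817 of 14217 genes did. Negative changes were 20 of 20, against 49.0% of probe sets and 53.5% of genes at 1 probe set each. The 20 genes varied together between arrays of one group, so these are not 20 separate observations. In 8 of the 20 all 6 arrays at 550 mg/kg lay below the vehicle mean (7.97% of probe sets), and in none did the arrays of the groups separate fully (0.548% of probe sets were lower without overlap). In bulk liver, fewer cells of a type and less RNA per cell cannot be told apart. Among markers of other cells, 7 of 7 measured Kupffer cell markers also had negative changes (median -0.22, 0 passed), with a mean of 8.39 to 9.06 at 550 mg/kg and 8.78 to 9.12 in vehicle. All 5 endothelial markers had negative changes too, with a mean of 8.08 to 8.21 at 550 mg/kg and 8.20 to 8.31 in vehicle. Negative changes were also 6 of 7 stellate cell, 3 of 4 cholangiocyte and 2 of 5 adipocyte markers, and 0 of these 4 lists' genes passed. Negative Kupffer cell changes were not particular to 550 mg/kg, with 6, 7 and 6 of 7 at 0.05, 0.55 and 5.50 mg/kg (medians -0.12, -0.25 and -0.19). Endothelial markers were negative in 4, 5 and 4 of 5 at these lower doses, against the same vehicle arrays. The hepatocyte marker mean lay lower at 550 mg/kg without overlap, and RMA values have no true zero at which a marker could be called absent. Their part in the sterol changes was not tested.

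Of the mevalonate steps, the largest differences were at the isomerase Idi1 and the decarboxylase Mvd. Idi1, which interconverts the isoprenoid building blocks, had 10.51, 10.90 and 11.31 as lowest, median and highest log2 values at 550 mg/kg, against 11.85, 11.71, 11.09, 11.29 and 11.36 in vehicle. Its difference was -0.55 ± 0.18 (SE, 95% interval -0.92 to -0.18, limma adjusted p = 0.23), with 6 of 6 arrays below the vehicle mean, and a second Idi1 probe set gave the same -0.55. The groups overlapped, since the highest arrays at 550 mg/kg stood above the lowest vehicle arrays. Mvd, mevalonate diphosphate decarboxylase, had 7.47, 7.97 and 8.36 at 550 mg/kg, against 8.70, 8.70, 8.08, 8.10 and 8.38 in vehicle. The Mvd difference was -0.42 ± 0.20 (SE, adjusted p = 0.55), again with 6 of 6 arrays below the vehicle mean and with overlap. The earlier and later enzymes of this stretch had smaller differences with adjusted p of 0.61 or more, namely the thiolase Acat2 (-0.33 ± 0.23), the kinases Mvk (-0.21 ± 0.11) and Pmvk (-0.25 ± 0.14), farnesyl diphosphate synthase Fdps (-0.22 ± 0.12) and squalene synthase Fdft1 (-0.20 ± 0.14).

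Past squalene, Sqle and Hsd17b7 differed most. Sqle encodes squalene epoxidase, the first oxygenation step of the pathway. Its lowest, median and highest log2 values were 8.61, 9.19 and 9.69 at 550 mg/kg, against 10.17, 10.00, 9.46, 9.37 and 9.90 in vehicle. The difference of -0.61 ± 0.24 (SE, 95% interval -1.10 to -0.13, adjusted p = 0.39) was the largest of the set at this dose, and 6 of 6 arrays lay below the vehicle mean while the groups overlapped. Hsd17b7, a sterol keto-reductase, had 8.61, 8.88 and 9.17 at 550 mg/kg, against 9.80, 9.58, 8.98, 8.90 and 9.35 in vehicle, a difference of -0.41 ± 0.19 (SE, adjusted p = 0.54) that also left the groups overlapping. A second Hsd17b7 probe set gave -0.54 (adjusted p = 0.325). The other 8 enzymes of this stretch, from lanosterol synthase Lss (-0.29 ± 0.19) through the demethylase Cyp51 (-0.23 ± 0.12), the methyl oxidase Msmo1 (-0.28 ± 0.16), the reductase Tm7sf2 (-0.26 ± 0.13), the dehydrogenase Nsdhl (-0.21 ± 0.14), the isomerase Ebp (-0.14 ± 0.08) and the desaturase Sc5d (-0.11 ± 0.10) to the final reductase Dhcr7 (-0.13 ± 0.17), had adjusted p of 0.61 or more.

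Insig1 and Stard4 spread widely within groups. Insig1, which retains SREBP in the endoplasmic reticulum, had 10.18, 10.96 and 11.98 at 550 mg/kg, against 11.87, 11.76, 11.68, 11.39 and 10.24 in vehicle. That is a difference of -0.40 ± 0.38 (SE, adjusted p = 0.85) with overlap, and it turned on single arrays, being -0.69 without vehicle replicate 5 and -0.24 without 550 mg/kg replicate 3. Stard4, a cytosolic sterol carrier, had 8.01, 8.54 and 8.88 at 550 mg/kg, against 9.42, 8.99, 8.73, 8.64 and 8.02 in vehicle. Its difference of -0.23 ± 0.24 (SE, adjusted p = 0.86) was -0.06 without vehicle replicate 1, -0.41 without vehicle replicate 5 and -0.12 without 550 mg/kg replicate 2. Srebf2 itself differed by -0.14 ± 0.10 (SE, adjusted p = 0.755) and by -0.07 without vehicle replicate 5. Among the enzymes, Tm7sf2 differed by -0.14 without vehicle replicate 2 and Nsdhl by -0.11 without 550 mg/kg replicate 1, and Dhcr7 by -0.07 without 550 mg/kg replicate 1 and by -0.22 without 550 mg/kg replicate 4.

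**Figure D2:**
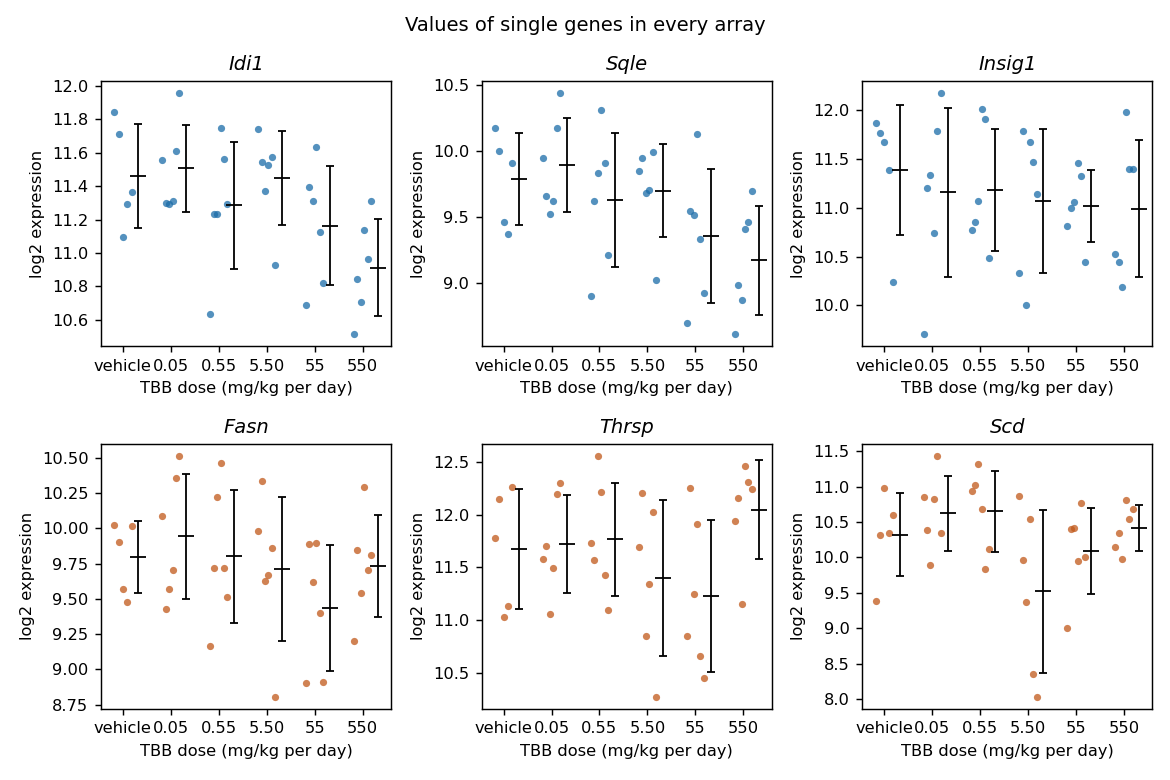
Log2 expression of 3 sterol genes (Idi1, Sqle, Insig1) and 3 lipogenic genes (Fasn, Thrsp, Scd) in every array by TBB dose in mg/kg per day, each point 1 array, with the group mean and SD as bars. Idi1 and Sqle had their lowest group means at 550 mg/kg (10.91 and 9.17, against 11.46 and 9.78 in vehicle), and the widest spread is that of Scd at 5.50 mg/kg (8.03 to 10.88).

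The lipogenic genes were divided in direction at 550 mg/kg. Of 17, 9 had a negative and 8 a positive change, the median was -0.003, and the range ran from -0.26 to 0.37. None passed the adjusted threshold (0.499% of probe sets did), and 1 lower and 1 higher gene had an unadjusted p under 0.05, where 4.22% and 4.45% of probe sets did. These were Elovl5 and Acacb.

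Thrsp, a small thyroid hormone-responsive protein gene tied to lipogenesis, had the largest positive difference. Its lowest, median and highest values were 11.15, 12.20 and 12.46 at 550 mg/kg, against 11.78, 12.15, 11.03, 11.14 and 12.26 in vehicle. The groups overlapped, the difference was 0.37 ± 0.33 (SE, adjusted p = 0.83), and it became 0.21 without vehicle replicate 3 and 0.24 without vehicle replicate 4. Acacb, the acetyl-CoA carboxylase of the mitochondrial surface, had 3.90, 4.02 and 4.51 at 550 mg/kg, against 3.87, 3.83, 3.80, 3.57 and 3.98 in vehicle. Its difference was 0.27 ± 0.12 (SE, adjusted p = 0.46), and it was the only gene of the set among the dimmest 40% of probe sets, where RMA shrinks differences. Elovl5, an elongase of polyunsaturated fatty acids, had 12.21, 12.32 and 12.47 at 550 mg/kg, against 12.41, 12.50, 12.59, 12.53 and 12.39 in vehicle, a difference of -0.15 ± 0.06 (SE, adjusted p = 0.44). All 6 Elovl5 values at 550 mg/kg lay below the vehicle mean, although a second Elovl5 probe set differed by -0.03 ± 0.12 (SE).

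The enzymes that feed, run and follow the fatty acid synthase had differences of -0.26 to 0.09, all with adjusted p of 0.77 or more. Acss2, which makes acetyl-CoA from acetate, had 9.91, 10.34 and 10.58 at 550 mg/kg, against 10.63, 10.87, 10.30, 10.53 and 10.44 in vehicle, a difference of -0.26 ± 0.19 (SE, adjusted p = 0.77) with overlap. Fasn, fatty acid synthase, differed by -0.07 ± 0.24, the citrate lyase Acly by -0.003 ± 0.29, the cytosolic carboxylase Acaca by 0.02 ± 0.18 and the citrate carrier Slc25a1 by -0.05 ± 0.08 (SE). The 95% interval for Fasn, -0.56 to 0.43, still allows differences in either direction, and a second Fasn probe set differed by -0.22. Leaving out 1 array moved Fasn between -0.18 and 0.04, Acly between -0.15 and 0.15, Acaca between -0.05 and 0.18 and Slc25a1 between -0.10 and -0.02. The desaturases gave 0.09 ± 0.38 for Scd, -0.10 ± 0.09 for Fads1 and -0.09 ± 0.13 for Fads2, and the elongase Elovl6 gave 0.06 ± 0.31 (SE). Leaving out 1 array moved Scd between -0.14 (without vehicle replicate 1) and 0.26 (without vehicle replicate 3) and Elovl6 between -0.10 (without vehicle replicate 3) and 0.26 (without vehicle replicate 5). It moved Fads1 between -0.14 and -0.05 and Fads2 between -0.19 and -0.004.

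Pnpla3, a lipid droplet protein gene that follows feeding, was the most variable member. It had 3.96, 5.44 and 7.58 at 550 mg/kg, against 5.56, 4.86, 6.22, 4.37 and 5.26 in vehicle. Its difference of 0.23 ± 0.48 (SE, adjusted p = 0.94) turned to -0.19 without 550 mg/kg replicate 4, and single other arrays moved it between 0.01 (without vehicle replicate 4) and 0.53 (without 550 mg/kg replicate 5). The acyltransferases Gpam (-0.03 ± 0.14) and Dgat2 (0.03 ± 0.08) and the factors Srebf1 (-0.20 ± 0.20) and Mlxipl (0.06 ± 0.16) completed the branch, all with adjusted p of 0.85 or more. Srebf1 differed by -0.11 without vehicle replicate 5, and leaving out 1 array moved Gpam between -0.11 and 0.05, Mlxipl between 0.01 and 0.15 and Dgat2 between 0.001 and 0.06.

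**Figure D3:**
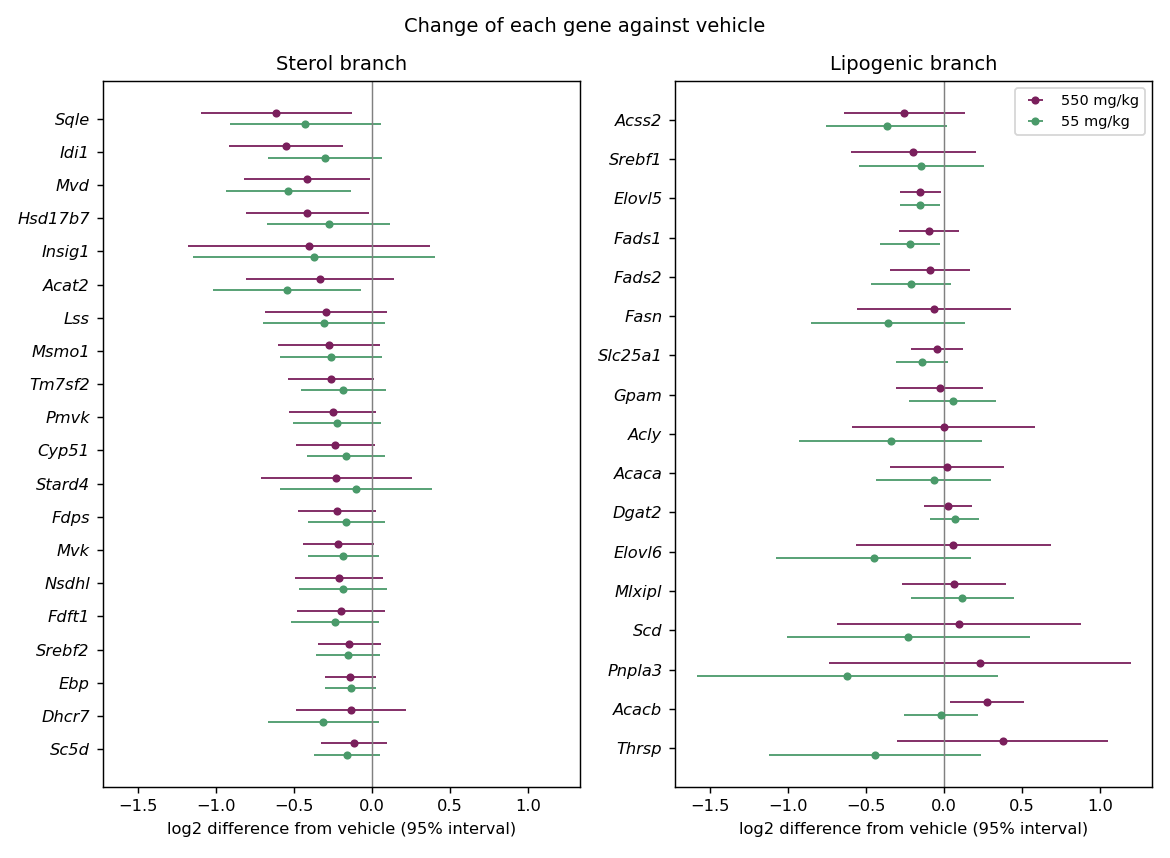
Log2 difference from vehicle of each gene with its 95% interval from the model over 35 arrays, at 550 mg/kg (upper point of each pair) and at 55 mg/kg (lower point), sterol genes on the left and lipogenic genes on the right. The points of all 20 sterol genes lie left of 0 at both doses, and at 550 mg/kg the lipogenic genes run from -0.26 (Acss2) to 0.37 (Thrsp).

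At 55 mg/kg both branches lay below vehicle, again with no gene past the threshold (0.00644% of probe sets were called). The sterol changes ranged from -0.54 to -0.10 with a median of -0.23 and were negative in 20 of 20 genes, where 49.3% of probe sets and 53.0% of genes were negative. As at 550 mg/kg, these 20 genes varied together between arrays of one group and are not separate observations. In 4 of them (Mvd, Pmvk, Tm7sf2 and Ebp) all 6 arrays lay below the vehicle mean, as in 5.04% of probe sets. The lipogenic changes ranged from -0.62 to 0.12 with a median of -0.21 and were negative in 14 of 17. All 6 arrays lay below the vehicle mean for 4 of them, Elovl5, Fads1, Pnpla3 and Slc25a1. Unadjusted p was under 0.05 in the lower direction for 2 sterol genes, Mvd (-0.53 ± 0.20) and Acat2 (-0.54 ± 0.23), and for 2 lipogenic genes, Elovl5 (-0.15 ± 0.06) and Fads1 (-0.22 ± 0.09), where 1.97% of probe sets did as much (SE, limma). The comparisons at 55 and 550 mg/kg share their vehicle arrays, so their values are not independent of each other. Of the markers at 55 mg/kg, 7 of 7 Kupffer cell (median -0.07), 6 of 7 stellate cell (median -0.18) and 7 of 9 hepatocyte markers (median -0.02) had negative changes, and 0 passed. The marker means overlapped between groups, with Kupffer cell means of 8.50 to 9.20 at 55 mg/kg and 8.78 to 9.12 in vehicle, stellate cell means of 6.64 to 7.02 at 55 mg/kg and 6.66 to 7.25 in vehicle, and hepatocyte means of 12.96 to 13.26 at 55 mg/kg and 13.11 to 13.29 in vehicle. Their part in the changes at 55 mg/kg was not tested.

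The direct comparison of 550 with 55 mg/kg uses no vehicle array. The sterol branch had a median difference of -0.03 (13 of 20 negative, against 51.1% of probe sets and 52.5% of genes, range -0.25 to 0.21), and the lipogenic branch had a median of 0.12 (4 of 17 negative, range -0.09 to 0.85). No gene of the set passed the threshold, where 0.686% of probe sets did. Thrsp had 11.15, 12.20 and 12.46 at 550 mg/kg and 10.45, 11.05 and 12.25 at 55 mg/kg, with overlap. This is a difference of 0.82 ± 0.32 (SE, adjusted p = 0.35), and Acacb differed by 0.29 ± 0.11 (SE, adjusted p = 0.32). These 2 had an unadjusted p under 0.05, in the direction where 5.19% of probe sets did.

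At the 3 lower doses the medians were near 0, with 0% of probe sets called in each comparison and 0 genes of the set. Against vehicle the sterol median was -0.02 at 0.05 mg/kg, -0.07 at 0.55 mg/kg and -0.01 at 5.50 mg/kg, with 13, 17 and 11 of 20 genes negative, where 48.1%, 48.5% and 49.0% of probe sets and 53.7%, 52.0% and 54.2% of genes were. The lipogenic median was 0.05 at 0.05 mg/kg, 0.09 at 0.55 mg/kg and -0.06 at 5.50 mg/kg, with 6, 5 and 11 of 17 genes negative. Of the 37 genes 0, 0 and 1 had an unadjusted p under 0.05, where 6.05%, 3.86% and 4.95% of probe sets did. The 1 gene was Scd, the desaturase that makes oleate, which had 8.03, 9.67 and 10.88 at 5.50 mg/kg, against 9.38, 10.32, 10.98, 10.34 and 10.60 in vehicle, a difference of -0.80 ± 0.38 (SE, adjusted p = 1.00) over a spread wider than in any other group.

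Fitted as a straight line on dose rank, from vehicle as 0 to 550 mg/kg as 5, all 20 sterol genes and 12 of 17 lipogenic genes sloped downward. The median slope was -0.05 log2 per dose step in the sterol branch and -0.03 in the lipogenic branch, against 0.0004 over all probe sets, of which 49.1% sloped downward, as did 52.1% of genes. An unadjusted p under 0.05 was reached by 11 of 20 sterol and 2 of 17 lipogenic genes, all downward, where 4.81% of probe sets sloped downward with such a p, and none of the 37 passed the adjusted threshold (0.171% of probe sets did). The genes of a branch varied together between arrays of one group, so these counts are not of separate observations. The steepest were Sqle (-0.13 ± 0.04 per step, SE, adjusted p = 0.14), Idi1 (-0.11 ± 0.03, adjusted p = 0.14) and Mvd (-0.10 ± 0.03, adjusted p = 0.21), and the lipogenic pair was Elovl5 (-0.03 ± 0.01, adjusted p = 0.17) and Srebf1 (-0.07 ± 0.03, adjusted p = 0.52). Group means of Sqle were 9.78 in vehicle and 9.89, 9.63, 9.70, 9.35 and 9.17 from the lowest to the highest dose, with the 2 lowest at the 2 highest doses.

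The set varied strongly between arrays that had the same dose. The median within-group SD was 0.26 in the sterol branch and 0.32 in the lipogenic branch, against 0.14 over all genes, and 25 of the 37 genes (67.6%) lay above the 90th percentile of all genes, where 10.0% of genes lie. All genes include dim ones, whose differences RMA shrinks, while most of the set is bright, and the comparison was not matched for expression level. The largest SDs were those of Pnpla3 (0.85), Scd (0.68), Insig1 (0.68), Thrsp (0.59), Elovl6 (0.54) and Acly (0.51), and the smallest those of Elovl5 (0.10), Dgat2 (0.13) and Ebp (0.13). Differences between the 6 groups held a median of 20.1% of the sum of squares in the sterol branch, 15.7% in the lipogenic branch and 14.6% over all genes. The share was highest for Idi1 (34.5%), Mvd (30.4%) and Sqle (29.8%) and lowest for Mlxipl (1.66%), Stard4 (3.62%) and Insig1 (4.12%).

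After each group mean was subtracted, the genes still varied together from array to array. The mean pairwise Pearson r over 35 arrays was 0.68 within the sterol branch (190 of 190 pairs positive), 0.43 within the lipogenic branch (130 of 136 positive) and 0.42 between the branches (308 of 340 positive), against 0.0045 over all pairs of genes on the array. Quantile normalisation keeps the mean over all pairs near 0, so that value does not show how unusual the set is. The genes were chosen with this shared variation known, and other sets of related or equally bright genes were not compared. The first principal component held 56.4% of the variance of the 37 genes and the second 11.8%, and 36 of 37 genes had the same sign on the first. The exception was Dgat2, the last acyltransferase of triglyceride synthesis. These correlations describe points that share an array, its hybridisation and its liver, and they are given with no p except for the 5 gene pairs tested further on.

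Within the sterol branch Mvd was closest to the mean of the other sterol genes (r = 0.95), and close pairs were Idi1 with Mvd (0.95) and Sqle with Msmo1 (0.95). Insig1 (0.55), Stard4 (0.59) and Tm7sf2 (0.51) followed the branch less closely, and Insig1 and Stard4 ran with each other at 0.91. Fasn with Acly (0.91), Acaca with Acly (0.85) and Fads1 with Fads2 (0.78) were close pairs of the lipogenic branch. Acss2, Nsdhl and Srebf2 tracked the branch they were not assigned to more closely than their own. Acss2 stood at 0.87 with the sterol mean and 0.66 with the other lipogenic genes, Nsdhl at 0.89 with the lipogenic mean and 0.78 with the other sterol genes, and Srebf2 at 0.80 with the lipogenic mean and 0.55 with the other sterol genes. Acss2 and Lss reached 0.93. On the second component Stard4, Tm7sf2 and Insig1 stood at one end and Acaca, Dgat2 and Srebf1 at the other, and Stard4 with Dgat2 gave the lowest r of the set, -0.50.

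**Figure D4:**
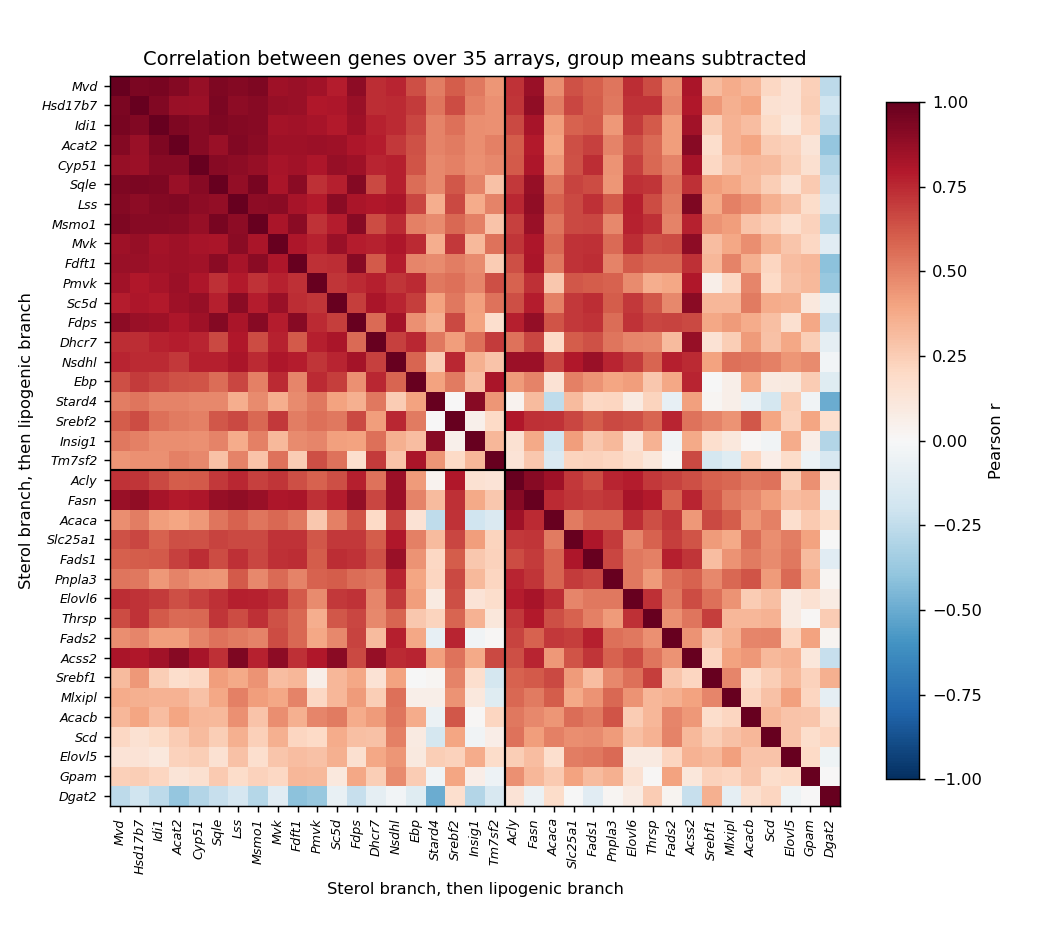
Pearson r between every pair of the 37 genes over 35 arrays after the group means were subtracted, sterol genes first and lipogenic genes second, each ordered by likeness to its own branch, red for positive and blue for negative r. The upper left block averages 0.68, the lower right block 0.43 and the blocks between the branches 0.42, and Dgat2 is the gene whose cells are mostly blue.

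The 5 gene pairs named here were tested by permuting arrays within groups, 2-sided, with 100000 resamples and adjustment over the 5. Sqle with Fasn, across the branches, gave r = 0.87 and rho = 0.85 over 35 arrays (permutation p = 1e-05 for each, the smallest the resamples can give, adjusted 1.67e-05), and r = 0.85 without the 2 arrays farthest from the median of Sqle. Fasn with Acly gave r = 0.91 and rho = 0.92, and Fasn with Elovl6 gave r = 0.82 and rho = 0.82, with the same permutation p, and r = 0.88 and 0.79 without the 2 farthest arrays. Sqle with Insig1, both sterol targets, gave r = 0.49 (permutation p = 0.0035, adjusted 0.00437) and rho = 0.63 (p = 0.0002, adjusted 0.00025), and r = 0.52 without the 2 farthest. Insig1 with Srebf1 gave r = 0.17 (permutation p = 0.388) and rho = 0.19 (p = 0.32), and r = 0.23 without the 2 farthest. The difference between these r values was not tested. The genes were chosen with earlier results of these data known, shared variation between arrays included. The p-values of these pairs are therefore no independent support for shared variation.

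**Figure D5:**
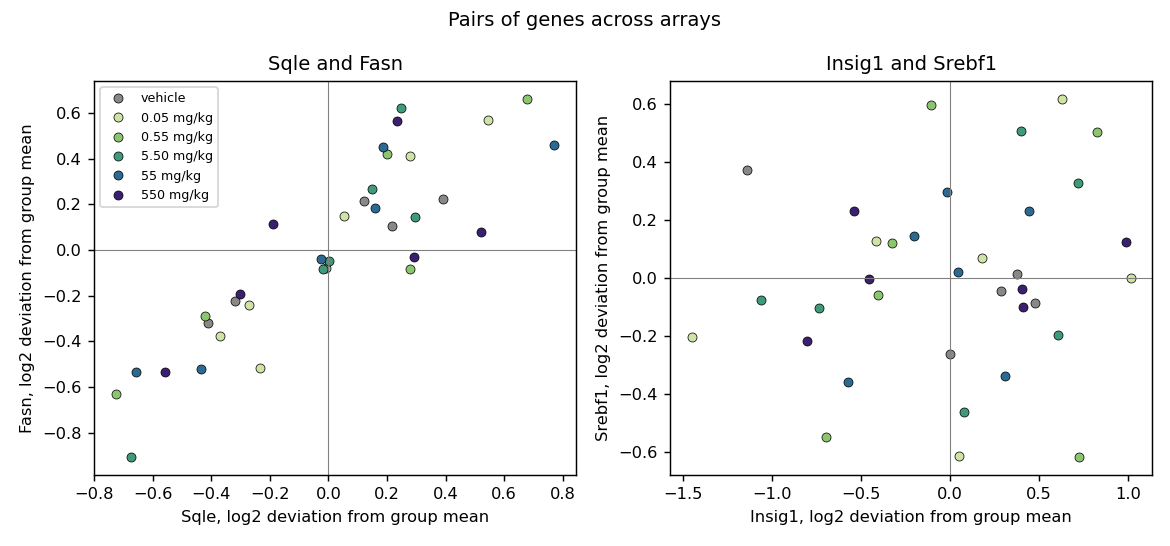
Deviation from the group mean in log2 units for Sqle (horizontal) and Fasn (vertical) on the left and for Insig1 (horizontal) and Srebf1 (vertical) on the right, 1 point per array, coloured by dose group. The left points lie along a rising line (r = 0.87) with every dose group spread along it, and the right points form no line (r = 0.17).

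The shared variation could be read off single arrays. At 550 mg/kg replicate 1 had 37 of 37 genes below their group mean and replicate 4 had 0 of 37. At 55 mg/kg replicate 1 had 34 and replicate 4 had 2, and at 0.55 mg/kg replicate 1 had 33 and replicate 4 had 2. The replicate numbers carried no such order elsewhere, where replicates 1 and 4 had 5 and 31 in vehicle, 22 and 31 at 0.05 mg/kg, and 7 and 10 at 5.50 mg/kg. At 5.50 mg/kg replicate 6 had 35 of 37 below the mean, with a median deviation of -0.46, while over all probe sets its mean r with other arrays was 0.994, ranked 27 of 35 counted from the lowest. Without it, an alternative chosen after seeing the data, the mean r was 0.67 within the sterol branch, 0.37 within the lipogenic branch and 0.37 between them.

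Other genes of these pathways were followed through lists drawn up for the purpose. The list of other sterol genes had 6 measured members. All 6 had a negative change at 550 mg/kg (median -0.19), as did 53.5% of all genes, and 0 passed, where 0.499% of probe sets did. Negative changes were not particular to 550 mg/kg, with 4, 5, 5 and 5 of 6 at 0.05, 0.55, 5.50 and 55 mg/kg. The medians there were -0.05, -0.06, -0.08 and -0.12, against the same vehicle arrays. Scap, the escort of SREBP, differed by -0.38 ± 0.12 (SE, adjusted p = 0.20), Tmem97, a sterol-responsive membrane protein gene, by -0.28 ± 0.12 (SE, adjusted p = 0.43), and Aacs, acetoacetyl-CoA synthetase, by -0.50 ± 0.33 (SE, adjusted p = 0.73).

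The list of other lipogenic genes had 11 measured members, with a median change of -0.02, 7 of 11 negative and 0 past the threshold at 550 mg/kg against vehicle. Of all genes 53.5% were negative, and 0.499% of probe sets passed. Me1, malic enzyme and a source of NADPH, had a mean of 9.98 at 550 mg/kg, against 9.41 in vehicle. Its difference was 0.56 ± 0.15 (SE, adjusted p = 0.080), without overlap between the groups, as in 0.796% of probe sets for higher values. Against 55 mg/kg Me1 rose by 0.57 ± 0.14 (SE, limma adjusted p = 0.046), the only gene of this list of 11 past the threshold, where 0.686% of probe sets passed. Over 20 alternatives this adjusted p of Me1 ran from 0.025 to 0.22, so the call was lost in 12 of them.

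Genes that follow feeding and fasting were listed because liver lipogenesis follows food intake. Of these, 8 were measured. None passed at 550 mg/kg (median -0.21, 5 of 8 negative, against 53.5% of all genes). The largest difference was that of Fgf21, a hormone gene induced by fasting, at -1.13 ± 0.50 (SE, adjusted p = 0.49). Over 35 arrays with group means subtracted, Fgf21 had r = -0.43 with the lipogenic mean and 0.04 with the sterol mean. The gluconeogenic gene Pck1 had 0.10 and -0.21, the kinase gene Pdk4 had -0.28 and -0.05, and the fasting-induced binding protein gene Igfbp1 had 0.12 and -0.004. The rest of the list had 0.19 and 0.16 (Cpt1a), 0.03 and 0.17 (Angptl4), 0.11 and 0.04 (Ppargc1a) and -0.02 and -0.23 (Irs2).

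By the same measure, the genes outside the set most like the sterol mean were Tprg1l (0.82), Erg28 (0.78), Tmem97 (0.78), Tmem254 (0.77) and Hes6 (0.75). Those most like the lipogenic mean were Secisbp2l (0.88), Pklr (0.87), Sec16b (0.81), Hes6 (0.77) and Lpin1 (0.77). Erg28 is a scaffold of sterol enzymes in yeast, Pklr is the liver pyruvate kinase, and Lpin1 is a phosphatidate phosphatase. Hes6, a transcriptional regulator, was the single gene among the closest 5 of both branches.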

How the data were processed

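Liver RNA was profiled on single-colour Affymetrix 3' arrays, 35 in all. The deposited values are log2 expression per probe set, produced with RMA in the affy package as the submitters' processing notes name them, with versions not given in the sources used here. By its usual definition RMA includes quantile normalisation, which hides a change shared by most genes and shrinks differences of dim genes. No further normalisation was applied.

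Of 31099 probe sets 57 controls were left out. A platform annotation gave 20826 of the remaining 31042 a single symbol, 436 several and 9780 none listed, and 14167 of 14217 genes matched RefSeq genes by Entrez identifier. The comparisons were fitted with limma 3.58.1 in R 4.3.3 (lmFit, eBayes, 1 mean per group over 35 arrays), 2-sided, with Benjamini-Hochberg adjustment over all probe sets within a comparison. The slope on dose rank replaced the group means by ranks 0 to 5. The design text names the package R/maanova at a false discovery rate under 5%, which was not used. The median SE of a difference at 550 mg/kg was 0.085. The number of arrays limits the precision.

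Full values are given for the 4 genes of each branch with the largest absolute change at 550 mg/kg and the 3 with the largest within-group SD. Elovl5 was added after its values were seen, as was Apoa1. Outside the set, the listed pathway and feeding genes and the 5 genes most like each branch could be named. The members and lists were chosen with earlier results of these data known. The pair Sqle with Hmgcs1 was planned and could not be computed. Correlations and permutations used Python 3.11.15 with numpy 2.4.6, pandas 2.3.3 and scipy 1.17.1, with plots by matplotlib 3.10.9, and the R package data.table (version 1.17.8). The limma fit was tested on simulated data. Alternatives were a filter on the 40% dimmest probe sets, array medians, cyclic loess, trend and robust moderation, fitting only 2 groups, array weights, a replicate block, each array of the 2 groups compared left out in turn (for the slope, each vehicle and 550 mg/kg array), and the mean of a gene's probe sets.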

Additional observations from a re-analysis of the deposited data

Results flagged for a closer look

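The sets of values numbered 234, each 1 of the 37 genes or 1 of the 2 branch means in 1 group of 5 or 6 arrays. In 15 of them an array's gap to the nearest other, divided by the range of the group, exceeded Dixon's 95% critical value (0.71 for 5 arrays, 0.625 for 6). Chance gives about 1 in 20, so the count is near that share, and the sets are not independent, since the genes varied together. Most of the 15 came from 1 array, 5.50 mg/kg replicate 6, which was lowest for sterol and lipogenic genes alike. It had 9.02 for Sqle (others 9.68 to 9.99), 9.04 for Lss (9.74 to 10.07), 11.77 for Cyp51 (12.24 to 12.45), 10.79 for Sc5d (11.18 to 11.34), 10.74 for Nsdhl (11.34 to 11.68) and 8.58 for Acat2 (9.52 to 9.73). It also had 11.72 for Fads1 (12.32 to 12.45), 9.80 for Acss2 (10.54 to 10.89) and 9.82 for Slc25a1 (10.18 to 10.30).

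At 550 mg/kg replicate 1 was lowest for Fdft1, at 10.13 (others 10.40 to 10.53), and for Fads2, at 10.68 (others 10.98 to 11.09). At 55 mg/kg replicate 1 was lowest for Pmvk, at 8.92 (others 9.28 to 9.47). At 0.55 mg/kg replicate 4 was highest for Gpam, at 7.13 (others 6.23 to 6.55), and at 0.05 mg/kg replicate 6 was lowest for Dgat2, at 10.44 (others 10.66 to 10.78). In vehicle replicate 5 was highest for Acaca, at 9.06 (others 8.12 to 8.33). The cause of these values was not tested.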

How the results depend on the processing

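None of the 37 genes passed the threshold in any comparison under any alternative run. Over 19 alternatives at 550 mg/kg against vehicle the sterol median ran from -0.29 to -0.20 and the lipogenic median from -0.09 to 0.04, which includes both signs. At 55 mg/kg they ran from -0.28 to -0.14 and from -0.23 to -0.15. The adjusted p of Sqle at 550 mg/kg ran from 0.28 to 0.65 and that of Idi1 from 0.16 to 0.53.

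The number of probe sets called over the whole array moved more. At 550 mg/kg against vehicle it was 155, 41 with only the 2 groups fitted, and 77 to 142 when 1 array was left out (82 without vehicle replicate 1, 77 without vehicle replicate 3, 88 without 550 mg/kg replicate 2). For 550 against 55 mg/kg it was 213, 76 with only the 2 groups fitted, 327 with array weights, and 123 to 197 when 1 array was left out (123 without 55 mg/kg replicate 1, 137 without replicate 4). For the slope on dose rank it was 53, 112 without the 40% dimmest probe sets, 93 with cyclic loess, 93 with trend and robust settings, 141 with array weights, 104 with the mean of a gene's probe sets, and 20 to 104 when 1 vehicle or 550 mg/kg array was left out, arrays of the other doses not having been left out (104 without vehicle replicate 2, and 21, 20, 30, 28 and 20 without 550 mg/kg replicates 1, 2, 3, 4 and 6). At 0.05, 0.55 and 5.50 mg/kg it was 0, 0 to 1 when 1 array was left out (1 without vehicle replicate 4 at each, and without vehicle replicate 5 at 5.50 mg/kg), and 1 with cyclic loess at 5.50 mg/kg.

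Me1 at 550 against 55 mg/kg had an adjusted p of 0.17 with only the 2 groups fitted and 0.22 with the mean of its probe sets, and it missed the threshold without 55 mg/kg replicates 1, 5 or 6 (up to 0.16) and without 550 mg/kg replicates 2, 4, 5 or 6 (up to 0.13). It was 0.059 with array medians subtracted, 0.055 with trend and robust settings, 0.056 with the replicate block, and at 550 mg/kg against vehicle 0.045 with array weights. The replicate block called 115 probe sets at 550 mg/kg against vehicle and 0 genes of the set. Over all probe sets, same-numbered arrays of different groups correlated at -0.001 on average over 85 pairs and differently numbered arrays at 0.0002 over 425. Such averages show no general pairing by number, and cannot show whether some groups or some genes are paired, which was not tested. The cause of these shifts was not tested.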

Other observations

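Genes around the pathways were also compared at 550 with 55 mg/kg, without vehicle arrays. The 11 measured other lipogenic genes had a median difference of 0.21 with 4 negative. Beside Me1, the pentose phosphate gene Pgd differed by 0.31 ± 0.11 (SE, limma adjusted p = 0.24) and Lpin2, a phosphatidate phosphatase gene, by 0.38 ± 0.15 (SE, adjusted p = 0.35). Igfbp1, a fasting-induced gene, differed by -0.92 ± 0.37 (SE, adjusted p = 0.36).

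Over 35 arrays with group means subtracted, Me1 had r = 0.73 with the mean of each branch and Pgd had 0.74 with the sterol and 0.57 with the lipogenic mean. Scap, the sterol sensor that escorts SREBP, had 0.56 with the sterol and 0.75 with the lipogenic mean. These are descriptions, with no test.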
